A study of Mus musculus with 3 samples.

Results

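High-score spots were the 15% of spots in each skin wound section in which 5 fibroblast genes, *Pi16*, *Clec3b*, *Dpt*, *Cd34* and *Dpp4*, took the largest share of the spot's unique molecular identifiers (UMIs, each standing for 1 captured RNA molecule). They numbered 263 of the 1748 spots that lay under tissue and held at least 500 UMIs. These were 78 of 520 spots on Day 3, 81 of 539 on Day 7 and 104 of 689 on Day 14. Because the summed UMIs of these 5 genes chose the spots, the levels of those genes are given below as a description, scaled to all UMIs. Every ratio of other genes leaves the 5 out of the library total.

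*Pi16* and *Dpp4* mark fibroblasts of the vessel adventitia and of the fascia, the loose connective tissue sheet beneath skin and around muscle. These cells are known as a resting fibroblast reservoir of interstitial spaces, where they build a fibrillin, tenascin-X and collagen meshwork and carry the surface proteins *Ly6a* and *Cd34*. In skin, the fascia lies next to the subcutaneous muscle layer and takes part in wound repair.

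The 3 sections came from wounded skin of the strain C57BL/6J, with 1 section each for Day 3, Day 7 and Day 14 post injury, every one on its own slide capture area. The study used adult, age-matched male mice with full-thickness excisional wounds made by biopsy punch in shaved dorsal skin. Visium reads polyadenylated RNA from spots that each cover several cells of possibly different types. With no second section of any day, no test between days or between spot classes was made. The intervals are 95% exact intervals that cover counting error of pooled UMIs, not the spread between mice, sections or spots. Within pooled spots, fewer cells of a type and less RNA per cell cannot be told apart.

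High-score spots were shallower than the remaining spots of their section. Their median was 1326.5 UMIs against 2161.5 on Day 3, 5069 against 7185 on Day 7 and 3488.5 against 5412 on Day 14, and together they held 117726, 558238 and 396322 UMIs. The section of Day 3 was the shallowest, with 144 of 664 spots under tissue below 500 UMIs against 10 of 549 on Day 7 and 8 of 697 on Day 14. Mitochondrial transcripts took 6.93%, 3.55% and 6.17% of the UMIs of high-score spots, against 6.42%, 3.76% and 5.56% elsewhere. *Gm42418*, a locus that overlaps ribosomal RNA repeats, took 2.38% against 1.03% on Day 3, 0.411% against 0.418% on Day 7 and 0.919% against 0.461% on Day 14. The part of depth and of this locus in the results below was not tested.

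The 5 genes contributed unequally to the choice of spots, and their make-up differed between the sections. *Pi16* (GRCm38 chr17:29317680-29330593, plus strand), a secreted peptidase inhibitor, supplied 68.2% of the score UMIs of high-score spots on Day 3 and 52.0% on Day 14 but 14.9% on Day 7. *Dpt* (chr1:164796644-164824266, plus strand), which encodes the matrix protein dermatopontin, supplied 4.14% on Day 3, 48.5% on Day 7 and 13% on Day 14. *Clec3b* (chr9:123150946-123157432, plus strand), which encodes tetranectin, supplied 16.7%, 18.5% and 23.3%. *Cd34* (chr1:194938819-194961279, plus strand), a sialomucin that also marks endothelial cells, supplied 9.52%, 16.1% and 8.84%. *Dpp4* (chr2:62330073-62412231, minus strand), a surface dipeptidase, supplied at most 2.85%. All 5 are protein-coding genes.

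In CPM, the UMIs of a gene scaled to a library of 1000000 UMIs, *Pi16* stood at 5173 in high-score spots against 267 elsewhere on Day 3, 290 against 107 on Day 7 and 1292 against 170 on Day 14. *Clec3b* stood at 1266 against 262, 362 against 62.1 and 578 against 91.1. *Dpt* stood at 314 against 164, 948 against 357 and 323 against 132, with its highest level on Day 7. At least 3 of the 5 genes were seen in 41 of 78, 60 of 81 and 70 of 104 high-score spots, while 12, 6 and 4 held a single one of them.

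The score had no gap at its boundary. The last spot taken in had a score of 4243 CPM on Day 3, 1343 on Day 7 and 1493 on Day 14, and the first spot left out had 4180, 1334 and 1490. The medians of high-score spots were 6913, 1788 and 2177 CPM against 843, 651 and 485 elsewhere. A median of 9.5, 9 and 8 score UMIs per high-score spot lay behind these shares, and 2, 15 and 9 spots were taken in on 3 or fewer. When each gene was left out of the score and its own level read in the spots chosen by the other 4, *Clec3b* was higher by 1.86, 1.68 and 1.96 on the log2 scale and *Cd34* by 1.08, 0.97 and 0.89. *Pi16* was higher by 2.07 (1.88 to 2.25) on Day 3 and 1.78 (1.60 to 1.96) on Day 14, and its value of 0.26 on Day 7 had an interval of -0.07 to 0.57. *Dpt* was higher by 0.66 on Day 7 and 0.50 on Day 14, and its 0.56 on Day 3 had an interval of -0.04 to 1.12. *Dpp4*, with 12, 16 and 21 UMIs in the spots so chosen, was higher by 2.01 on Day 3, and its 0.17 on Day 7 and 0.49 on Day 14 had intervals across 0. *Clec3b* and *Cd34* were thus higher in each section where the other 4 genes were high, and *Pi16*, *Dpt* and *Dpp4* in some of the sections.

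High-score spots lay next to each other, and nearer to muscle-rich spots than the other spots did. Of the neighbouring spots of a high-score spot, 43.5% on Day 3, 37.2% on Day 7 and 35.1% on Day 14 were themselves high-score spots, beside the 15% that such spots made up of each section. These shares were 26.4% on Day 3 when spots were ranked by the mean of scaled gene shares, and 18.0% and 18.8% on Days 7 and 14 after thinning to 500 UMIs. On Day 3, 52 of the 78 formed 1 connected band that was 28 spot pitches wide and 3.46 high in a section 51 wide. The largest connected group held 23 spots on Day 7 and 30 on Day 14. The median distance to the nearest spot among the 15% richest in skeletal muscle transcripts was 1.73 pitches from high-score spots against 2.82 from others on Day 3, 1.73 against 3.80 on Day 7 and 2 against 6.25 on Day 14. The nearest epidermis-rich spot was equally far from both classes on Day 3, at 2.65 pitches. It was farther from high-score spots on Day 7, at 4 against 2, and Day 14, at 4.36 against 2.65. The nearest adipocyte-rich spot was equally far from both classes on Days 3 and 7, at 1.73 pitches. On Day 14 it was nearer to high-score spots, at 1 against 2.

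**Figure D1:**
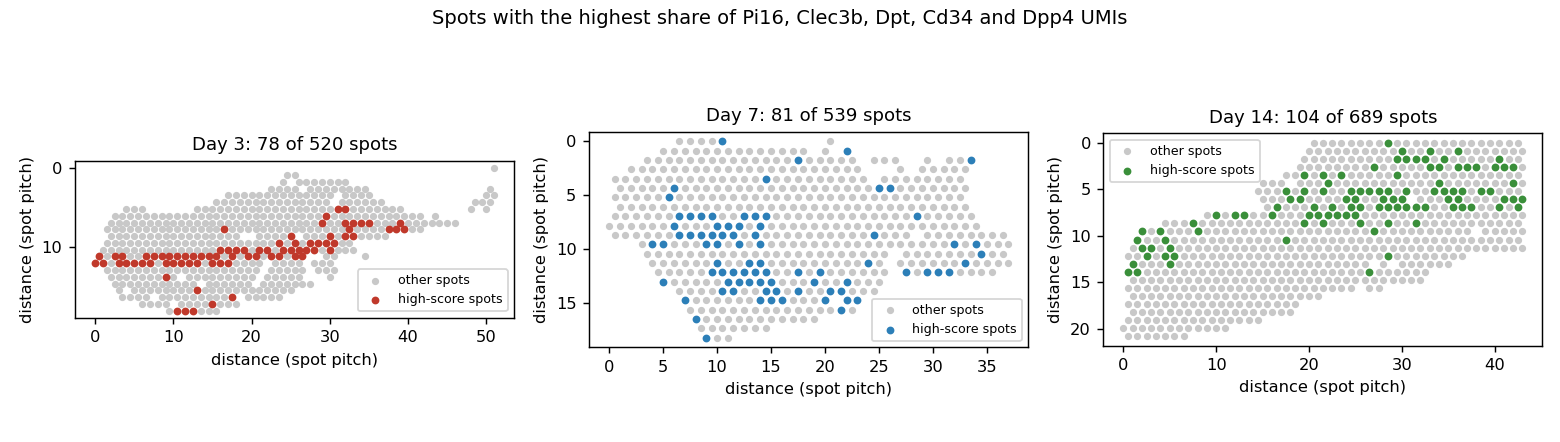
Positions of spots under tissue with at least 500 UMIs in the sections of Day 3, Day 7 and Day 14, with both axes as distance in units of the spacing between neighbouring spots and high-score spots in colour over the other spots in grey. The 78 spots of Day 3 run mostly along 1 band, while the 81 of Day 7 and the 104 of Day 14 form several smaller groups.

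Genes of adventitial and fascial fibroblasts that were not used to choose the spots were higher in high-score spots of all 3 sections. Summed over the list, they reached 6137 CPM against 2748 elsewhere on Day 3, a log2 ratio of 1.16 (1.04 to 1.27). They reached 4243 against 2375 on Day 7, a log2 ratio of 0.84 (0.77 to 0.90), and 3334 against 1663 on Day 14, a log2 ratio of 1.0 (0.92 to 1.09). Of the 13 list genes with at least 100 UMIs over both spot classes, 11, 9 and 11 were at least 1.5-fold higher, and none was 1.5-fold lower in any section. Over all genes with that many UMIs, 12.3% of 3039 were 1.5-fold higher on Day 3, 4.56% of 6695 on Day 7 and 6.03% of 7407 on Day 14. With the further demand that the counting interval exclude a ratio of 1, 11, 9 and 10 list genes were higher, where 8.23%, 3.7% and 4.14% of all genes were. Of the genes past this fold on Day 14, 23.4% were higher, and this share was 36.5% when DESeq2 size factors scaled the spot classes in place of UMI totals. The median log2 ratio of the list was 1.11, 0.82 and 1.12, against -0.11, -0.06 and -0.17 over all genes. The minimum was counted over spot classes of unequal depth. On Day 3, 373 genes were 1.5-fold higher and 716 lower with it, and 2837 and 2464 without it, so the order turned. Without it the median over all genes was 0.05 there. The order held on Day 7, with 2029 and 2307, and on Day 14, with 2296 and 3018.

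Surface proteins of the lineage were among the higher genes. *Ly6a*, which encodes the progenitor antigen Sca-1, stood at 1900 CPM against 935 on Day 3, 759 against 394 on Day 7 and 850 against 487 on Day 14. *Cd248*, which encodes endosialin, stood at 325 against 146, 442 against 254 and 263 against 120. *Ackr3*, a scavenging receptor of the chemokine CXCL12, was 479 against 149 on Day 3 and 185 against 95.7 on Day 14, and with 127 against 90.2 on Day 7 it was below 1.5-fold there. *Adgrd1*, an adhesion receptor, was higher by 1.66, 0.91 and 0.84 on the log2 scale. The high-score spots of every section thus exceeded the other spots in *Ly6a*, *Cd248* and *Adgrd1*, with intervals clear of 0.

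Matrix genes of the lineage were higher as well. *Fbn1*, the fibrillin of microfibrils, stood at 642 against 321 CPM, 1150 against 638 and 577 against 266. *Tnxb*, which encodes tenascin-X, stood at 282 against 137, 203 against 56.2 and 225 against 74.6, so its ratio was smallest on Day 3 at a log2 of 1.04 (0.47 to 1.58). *Efemp1*, which encodes fibulin-3, stood at 351 against 122, 102 against 28.4 and 78.4 against 33.5. *Igfbp6*, an IGF-binding protein with preference for IGF2, stood at 471 against 135, 442 against 236 and 329 against 118. *Mfap5* and *Sema3c*, a microfibril component and a guidance ligand, were higher by 0.76 and 0.82 on Day 7 and 1.45 and 1.15 on Day 14. On Day 3 they had 11 and 8 UMIs in high-score spots and their intervals spanned 0.

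**Figure D2:**
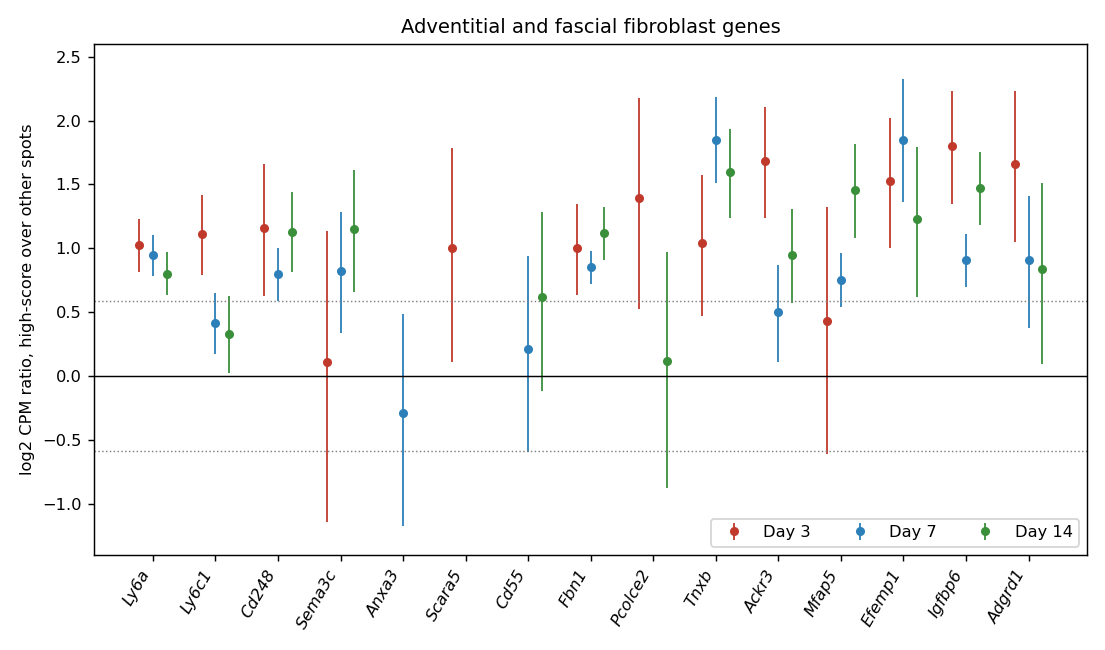
Log2 ratio of CPM in high-score spots over other spots for each adventitial and fascial fibroblast gene with at least 100 UMIs in a section, with points for the 3 days, bars for 95% counting intervals and dotted lines at 1.5-fold. *Tnxb* and *Efemp1* reach 1.85 on Day 7, while *Anxa3*, at -0.29 on Day 7, is the single point below 0.

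The list was not evenly spread over the spots. Per spot, its median was 5587 CPM in high-score spots against 2598 elsewhere on Day 3, 3216 against 2226 on Day 7 and 2596 against 1636 on Day 14. The interquartile ranges of both classes overlapped in every section, running from 2213 to 4496 CPM in high-score spots of Day 7 and from 1695 to 2768 in the others. If spots were ranked by this list in place of the 5 genes, 47.4%, 45.7% and 47.1% of the top 15% would be the same spots.

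Depth separated the high-score spots among themselves. On Day 7 those at or above their median UMI count had an adventitial list log2 ratio of 0.95 over the other spots, and those below it 0.16 (-0.03 to 0.34). The shallow spots of Day 7 were higher in skeletal muscle transcripts, at 0.85, where the deep ones were at -0.60, and their general fibroblast list was at -0.56 against 0.40 in the deep ones. On Day 3 the deep and shallow spots had adventitial ratios of 1.29 and 0.81, and on Day 14 of 1.08 and 0.82. On Day 7 the deeper class had a median of 9471 UMIs per spot against 2409.5. Adventitial and fascial genes outside the score were thus higher in both depth classes on Days 3 and 14. On Day 7 they were higher in the deeper class, and this was not seen in the shallower one. Whether the fibroblasts of these spots were resting was not tested. Wound fibroblast genes stood at 1344 CPM against 1529 on Day 3, 8701 against 8612 on Day 7 and 2575 against 1876 on Day 14. When every spot was thinned to 500 UMIs before scoring, the adventitial list was at 0.89, 0.24 and 0.45. The thinned score then rested on a median of 4, 2 and 1 UMIs per spot taken in. On Days 7 and 14, 181 and 209 spots reached its lowest count for 81 and 104 places. Ties went to the spots with more UMIs before thinning. The spots taken in had medians of 9771 and 7292 UMIs there, so thinning did not make the choice free of depth.

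**Figure D3:**
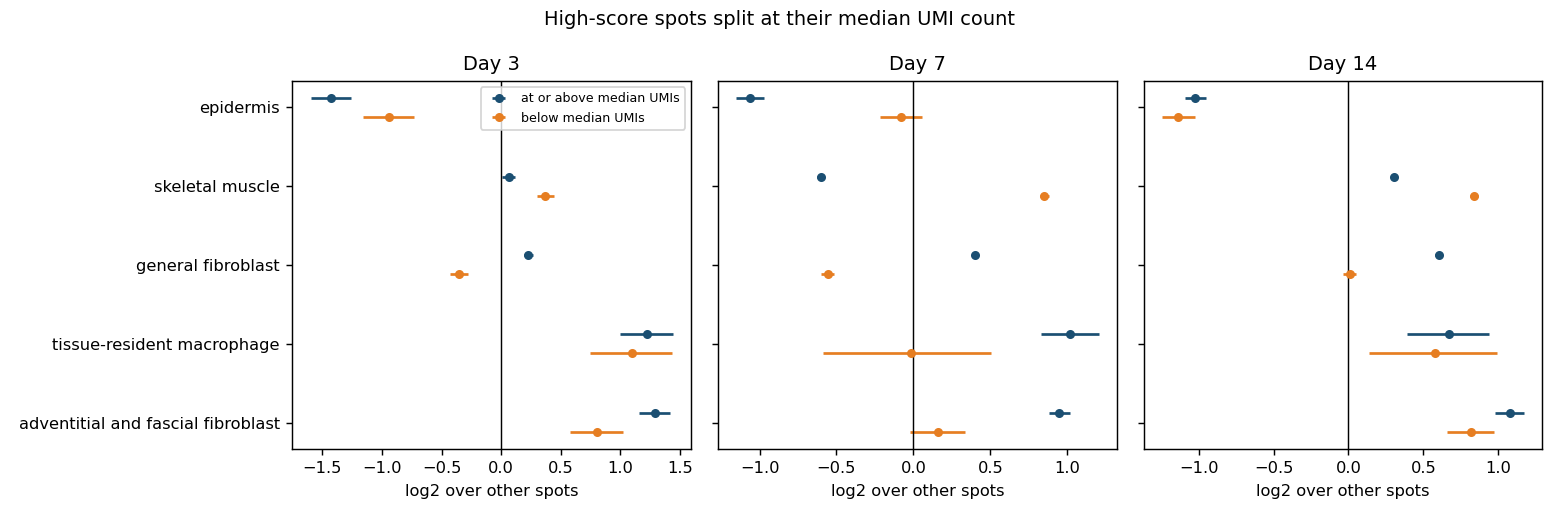
Log2 ratio over the other spots of the section for 5 gene lists, drawn separately for high-score spots at or above and below their own median UMI count, with 95% counting intervals and 1 panel per day. On Day 7 the shallower spots sit at 0.16 for adventitial and fascial genes and 0.85 for skeletal muscle, and the deeper ones at 0.95 and -0.60.

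Fibroblast genes in general were raised far less than those of the fascial lineage. The general fibroblast list had log2 ratios of 0.07, 0.27 and 0.45, with *Col1a1* at 0.06, 0.22 and 0.40. *Dcn*, a collagen-binding proteoglycan, was higher by 0.41, 0.77 and 0.59. *Pdgfra*, the PDGF receptor of fibroblasts, was higher by 1.36 on Day 3, and its values of -0.19 and -0.62 on Days 7 and 14 had intervals across 0. *Gsn*, an actin-severing protein abundant in dermal and muscle fibroblasts, stood at 5016 CPM against 1964 on Day 3, 1407 against 1659 on Day 7 and 2110 against 1601 on Day 14.

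Genes of the upper dermis and the follicle were lower on Day 7. Their list was at -0.85, -1.05 and -0.30. At least 1.5-fold lower were 3 of 3, 7 of 7 and 2 of 8 genes with enough UMIs, beside 23.6%, 9.86% and 19.8% of all genes, and 1, 6 and 1 of them also had intervals clear of 0. The Day 3 value turned, to 0.031 when spots were ranked by the mean of scaled gene shares and to 0.109 after thinning to 500 UMIs. *Crabp1*, a retinoic acid binding protein of upper wound fibroblasts, stood at 68.5 against 174 CPM on Day 3, 149 against 403 on Day 7 and 53.1 against 61.0 on Day 14, so the sections of Days 3 and 7 showed a difference and that of Day 14 did not show one. *Apcdd1*, a Wnt inhibitor of the papillary dermis, was at -0.67, -0.69 and -0.78, with an interval across 0 on Day 3.

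Genes of activated wound fibroblasts did not set high-score spots apart on Days 3 and 7. Their list had log2 ratios of -0.19 (-0.43 to 0.05), 0.01 (-0.03 to 0.06) and 0.46 (0.36 to 0.55). Of 9, 12 and 12 genes, 0, 0 and 4 were 1.5-fold higher, beside 12.3%, 4.56% and 6.03% of all genes, and 3, 1 and 0 lower, beside 23.6%, 9.86% and 19.8%. *Postn*, a matricellular protein of healing tissue, stood at 282 against 238 CPM, 4516 against 3580 and 873 against 521. *Cthrc1*, a secreted protein of reparative fibroblasts, was higher by 1.37 (1.06 to 1.67) on Day 14. *Tnc*, which encodes tenascin-C of granulation tissue, was at -1.13, -0.46 and -0.06. Tenascin-X was thus higher and tenascin-C lower or level in the same spots.

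Among matrix genes, some were higher in each section. *Col14a1*, a fibril-associated collagen, stood at 377 CPM against 108, 714 against 295 and 384 against 177, log2 ratios of 1.81, 1.28 and 1.12. *Ogn*, which encodes the proteoglycan osteoglycin, stood at 282 against 90.5, 196 against 106 and 137 against 61.5. The collagen list as a whole was at 0.00, 0.24 and 0.45, and the elastic fibre list at 0.12, 0.20 and 0.57. Of the elastic fibre genes, 2 of 12, 2 of 15 and 6 of 15 were 1.5-fold higher, beside 12.3%, 4.56% and 6.03% of all genes, and 1, 1 and 0 lower. Those higher on Day 14 included the cross-linking enzymes *Lox* at 0.79 and *Loxl1* at 0.77 and the fibrillin *Fbn2* at 1.02. *Col8a1*, a short-chain collagen, was higher by 2.06 (1.44 to 2.64) on Day 14, with 34 UMIs in high-score spots.

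**Figure D4:**
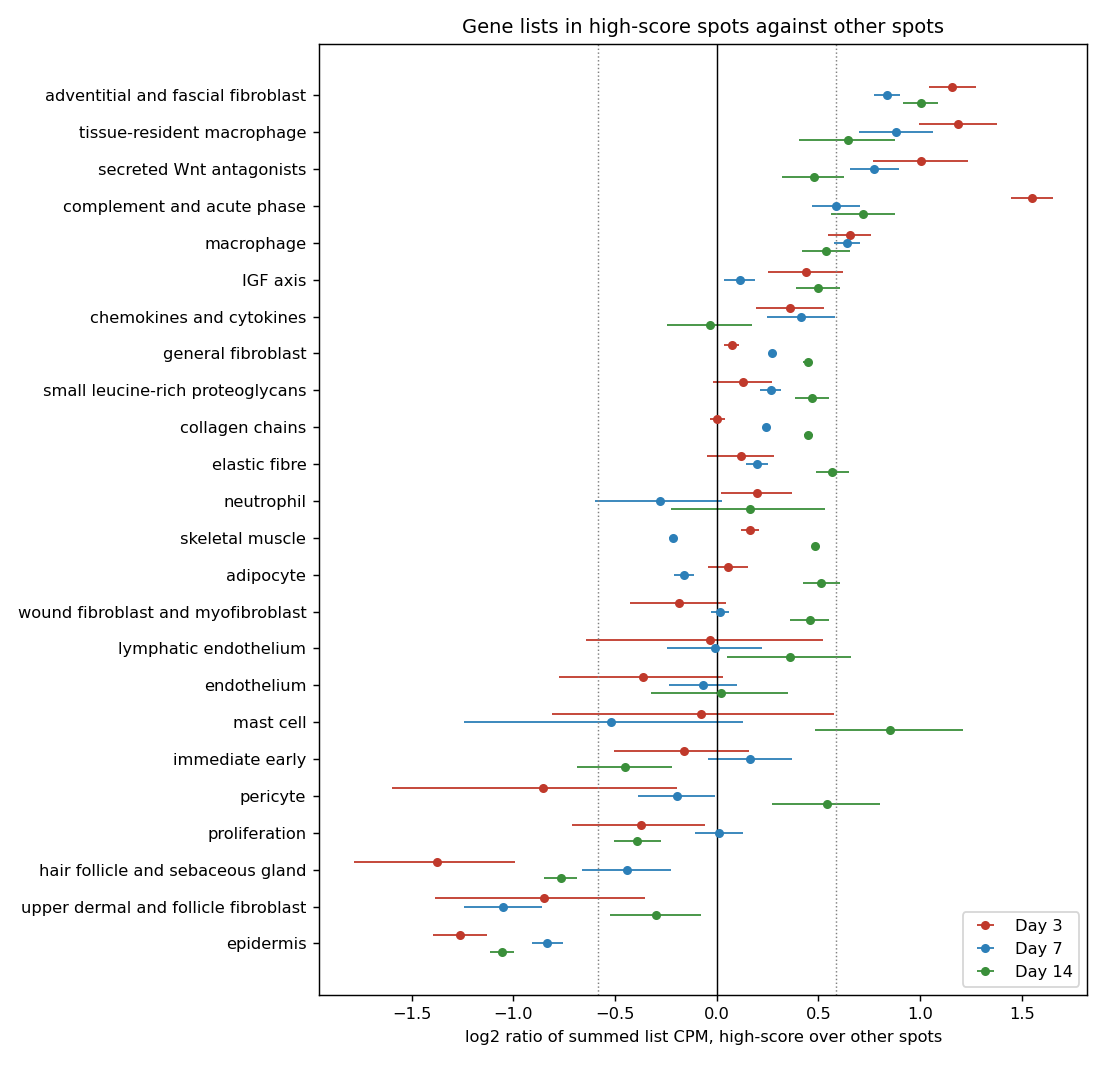
Log2 ratio of the summed CPM of the gene lists in high-score spots over other spots, with 1 row per list, points for the 3 days, bars for 95% counting intervals and dotted lines at 1.5-fold. Adventitial and fascial genes lie between 0.84 and 1.16, and epidermis genes between -1.26 and -0.83.

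Other spots include epidermis, muscle and wound bed, so high-score spots were also set against an equal number of the remaining spots, those with the largest share of general fibroblast genes, called matrix-rich spots here. The adventitial list was higher than in these by 0.72, 0.76 and 0.59, with 6, 5 and 5 of 8 genes at least 1.5-fold higher and none as much lower. Of all genes, 18.7% of 815, 4.55% of 2903 and 6.91% of 1853 were that much higher and 20.5%, 5.86% and 9.39% lower. With no gene minimum the order turned on Day 3, at 3087 genes higher and 2550 lower, and on Day 7, at 2460 and 2171. It held on Day 14, at 2181 and 3130. On Day 14 the higher genes were 42.4% of those past the fold with UMI totals and 70.0% with DESeq2 size factors. The general fibroblast list, which chose the matrix-rich spots, was at -1.11, -0.11 and -0.48. Of the 10 highest genes per section, *Sfrp2* on Day 3 was at 2.73, *Tnxb* on Day 7 at 2.45 and *C4b* on Day 7 at 1.48. *Mfap4*, an elastic fibre glycoprotein of that list, was at -2.86 on Day 3. *Crabp1* and *Lrrc15*, the latter a membrane protein of myofibroblasts, were at -2.12 and -1.42 on Day 7, and the collagen-remodelling genes *Mmp11* and *Thbs2* at -1.72 and -1.30 on Day 14. Matrix-rich spots were deeper, with medians of 5417, 13268 and 6309 UMIs, and muscle transcripts were higher in high-score spots than there by 1.22, 0.51 and 0.77. Muscle genes were also among the 10 highest genes of each section. They included *Atp2a1* and *Myh4* on Day 3, with *Gm42418* ranked above them, and *Myh1*, *Trdn* and *Mb* on Day 7. On Day 14 most of the 10 were muscle genes, led by *Trdn* and *Myh1*. The part of depth and muscle in the ratios against matrix-rich spots was not tested.

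Complement and acute phase genes were high in these spots on Day 3. Their list reached 8003 CPM against 2734 elsewhere, a log2 ratio of 1.55 (1.45 to 1.65), with 6 of 9 genes at least 1.5-fold higher. The ratios on Days 7 and 14 were 0.59 and 0.72, with 4 of 8 and 3 of 7 genes higher, beside 12.3%, 4.56% and 6.03% of all genes in the 3 sections. *C3*, the central complement component, stood at 2499 against 465 CPM on Day 3, the largest ratio of the list at 2.43 (2.23 to 2.62), then 194 against 155 and 207 against 84.8. *C1ra* and *C1s1*, the proteases of the classical pathway, were higher by 2.06 and 1.64 on Day 3, and on Day 14 their intervals spanned 0. *C4b*, whose reads can be shared with its near-identical neighbour *C4a*, stood at 924 against 523, 212 against 105 and 215 against 124. *Saa3*, an acute phase apolipoprotein, stood at 2628 against 796 on Day 3, and high-score spots held 5 and 1 of its UMIs on Days 7 and 14.

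Several other genes led the Day 3 section. *Adamts15* and *Adamts5*, proteases that cleave proteoglycans, stood at 308 against 49.5 CPM and 231 against 46.5. *Prg4*, which encodes the lubricant lubricin of gliding surfaces, stood at 496 against 92.4, and was at -0.23 in spots chosen without *Pi16*. *Plac8* stood at 505 against 91.1, *Inmt*, a methyltransferase of indole amines, at 368 against 74.6, and *Retnla*, which encodes the resistin-like molecule of alternatively activated macrophages, at 676 against 185. Their log2 ratios lay between 1.87 for *Retnla* and 2.64 for *Adamts15*.

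The list of secreted Wnt antagonists was at 1.01, 0.78 and 0.48, with 3 of 3, 3 of 6 and 2 of 6 genes 1.5-fold higher, beside 12.3%, 4.56% and 6.03% of all genes. Of these, 2, 3 and 2 also had intervals clear of 0. On Day 3 the list stood at 1489 CPM in high-score spots, of which *Sfrp2* held a large part. *Sfrp2*, a secreted frizzled-related protein, stood at 633 CPM against 295, 558 against 175 and 144 against 45.4, with log2 ratios of 1.10, 1.68 and 1.67. Its direction on Day 3 turned, to -0.51, when *Pi16* was left out of the score. *Sfrp4*, its relative, stood at 68.2 against 17.0 on Day 7. *Dkk3* was at -0.77 on Day 7, so not every antagonist was higher. In the IGF axis, *Igf1* stood at 171 against 82.6, 251 against 161 and 86.0 against 39.9, while its carrier *Igfbp3* was at -1.35 on Day 3 and -0.84 on Day 7. Its direction on Day 3 turned, to 0.274 by scaled shares and 0.368 after thinning.

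The leading genes of the Day 7 section were *Ccn3*, a matricellular protein, at 169 against 32.2 CPM, *Dlk1*, an inhibitor of adipocyte differentiation, at 84.4 against 18.8, and the chemokines *Ccl6* and *Ccl9*. *Ccl6*, a product of myeloid cells, stood at 271 against 62.6, and also at 1027 against 425 on Day 3, while its 55.6 against 35.9 on Day 14 gave 0.63 (-0.08 to 1.29). After thinning its Day 7 value turned to -0.172. *Ccn3* was again among the leading genes of Day 14, at 147 against 40.6.

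Macrophage transcripts were higher in high-score spots too. The macrophage list was at 0.65, 0.64 and 0.54, with 5, 6 and 3 of 10 genes 1.5-fold higher. Tissue-resident macrophage genes were at 1.19, 0.88 and 0.64, with 6 of 6, 4 of 5 and 3 of 4 higher. The shares over all genes were 12.3%, 4.56% and 6.03%. *Mrc1*, the mannose receptor, stood at 591 against 290 CPM, 158 against 67.8 and 86.0 against 32.5. *F13a1*, a transglutaminase of resident macrophages, stood at 488 against 165, 95.1 against 47.2 and 63.2 against 36.1, and its Day 7 log2 ratio turned to -0.112 after thinning. The folate receptor *Folr2* was higher by 1.14, 1.78 and 1.76. *Lyz2*, the lysozyme of myeloid cells, was at 0.07 on Day 3, unlike *C1qa*, a subunit of the C1q complement recognition molecule, at 1.45. Of the 15% of spots richest in resident macrophage genes, 41.0%, 28.4% and 30.8% were high-score spots. The part of these cells in the complement values of the same spots was not tested.

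Transcripts of other structures were unevenly present. Skeletal muscle genes were at 0.16, -0.22 and 0.48, and adipocyte genes at 0.06, -0.16 and 0.52. On Day 14 the fast muscle myosin *Myh1* was among the leading genes, at 2054 CPM against 672, with the light chain *Myl4* at 152 against 28.7 and the neuronal RNA *Bc1* at 1793 against 631. Spots that were both high-score and among the 15% richest in muscle genes numbered 2, 15 and 13. Without the muscle-rich spots of both classes, an alternative added after the data were seen, the adventitial list was at 1.11, 0.84 and 0.99. Neutrophil, endothelial and lymphatic lists lay within 1.5-fold in every section, at -0.28 to 0.20, -0.36 to 0.02 and -0.03 to 0.36.

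Epidermal genes were lower, with log2 ratios of -1.26, -0.83 and -1.05. The Day 14 value turned to 0.089 when spots were thinned to 500 UMIs before scoring. At least 1.5-fold lower were 10, 9 and 10 of 10 epidermal genes, where 23.6%, 9.86% and 19.8% of all genes were. The interval excluded a ratio of 1 for each of these, beside 9.74%, 5.08% and 8.96% of all genes. Hair follicle and sebaceous gland genes were at -1.37, -0.44 and -0.77. *Hmgcs1*, an enzyme of cholesterol synthesis, was at -1.94, -1.50 and -1.22. *Fa2h*, a fatty acid hydroxylase, was at -1.89, -0.89 and -1.14. *Scd1*, the desaturase of sebaceous glands, stood at 916 against 2885 CPM on Day 3.

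Of 2936 genes with at least 100 UMIs in all 3 sections, 34 (1.16%) were at least 1.5-fold higher in high-score spots of each and 67 (2.28%) lower. The intervals of 29 and 53 of these lay clear of 0 in each section. *Hmgcs1*, *Fa2h* and the genes named next were chosen after their values were seen. Besides those above, the higher ones included the matrix proteases *Mmp14*, at 0.97, 1.37 and 1.19, and *Mmp3*, at 0.72, 0.94 and 0.77. *Adamts5* was at 2.31, 0.87 and 1.61, *Fstl1*, which encodes a secreted follistatin-like protein, at 0.73, 0.69 and 1.12, and *Ace*, the angiotensin-converting enzyme, at 0.74, 0.74 and 1.51, with -0.021 on Day 7 after thinning.

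High-score spots were next compared between days, where 1 section stands for each day and section, mouse, capture area and day cannot be told apart. The spots were chosen within each section, with lowest scores of 4243, 1343 and 1493 CPM and a different make-up of score genes. The part of this choice in the day differences was not tested. Of 1026 genes with at least 100 UMIs in high-score spots of both days together, 12.2% were at least 2-fold higher on Day 7 than on Day 3 and 8.19% lower. From Day 7 to Day 14, 6.60% of 1485 were higher and 11.6% lower, and from Day 3 to Day 14, 10.3% of 686 were higher and 10.8% lower. In the other spots of the sections the shares were 7.16% and 6.17%, 9.53% and 6.54%, and 12.9% and 6.11%. The minimum was counted over 2 sets of unequal depth, and the balance of higher and lower genes depended on it. With no minimum, high-score spots had 1446 genes higher and 2079 lower on Day 7 than on Day 3. From Day 7 to Day 14 they had 1944 higher and 1602 lower, and from Day 3 to Day 14 1702 and 2034. The order thus turned in the first 2 pairs.

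Complement and acute phase genes were far lower after Day 3 in both spot classes. Their list stood at 8003 CPM on Day 3, 1278 on Day 7 and 984 on Day 14 in high-score spots, and at 2734, 850 and 597 elsewhere. The log2 difference from Day 3 to Day 7 was -2.65 in high-score spots and -1.69 in the others, and whether these differ was not tested. *C3* was lower on Day 7 than on Day 3 by a log2 ratio of -3.69 (-4.02 to -3.37), against -1.58 elsewhere, and *Saa3* by -8.19, against -5.62. Neutrophil genes were also lower on Day 7, at 172 CPM against 2474, a log2 difference of -3.84 in high-score spots and -3.37 elsewhere. *S100a9*, a calcium-binding protein of neutrophils, was at -7.17 against -5.45.

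Wound fibroblast genes were highest on Day 7 in both spot classes. They stood at 1344, 8701 and 2575 CPM in high-score spots and 1529, 8612 and 1876 elsewhere. *Postn* was higher on Day 7 than on Day 3 by 4.0 in high-score spots and 3.91 elsewhere, and lower on Day 14 than on Day 7 by -2.37 and -2.78. *Col12a1*, a fibril-associated collagen of growing tissue, was higher on Day 7 by 4.71 and 3.47. The growth factor *Ptn* had 203 UMIs in high-score spots of Day 7 and 0 on Day 3. High-score spots therefore shared the day differences of the sections in these genes.

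From Day 3 to Day 7, adventitial genes differed less than the complement, neutrophil and wound fibroblast genes above. Their list was lower on Day 7 than on Day 3 by -0.53 in high-score spots and -0.21 elsewhere. It was lower on Day 14 than on Day 7 by -0.35 and -0.51. From Day 3 to Day 14 it was at -0.88 (-1.01 to -0.75) in high-score spots and -0.72 elsewhere. Over the same days the general fibroblast list was at -0.14 and -0.51. Tissue-resident macrophage genes stood at 2260, 569 and 433 CPM in high-score spots, log2 differences of -1.99 and -0.40 beside -1.68 and -0.16 elsewhere. The follicle keratins *Krt71* and *Krt25* had 349 and 285 UMIs in high-score spots of Day 14 and 0 on Day 7, and the hair follicle list was higher on Day 14 by 3.29 beside 3.62 in the other spots.

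**Figure D5:**
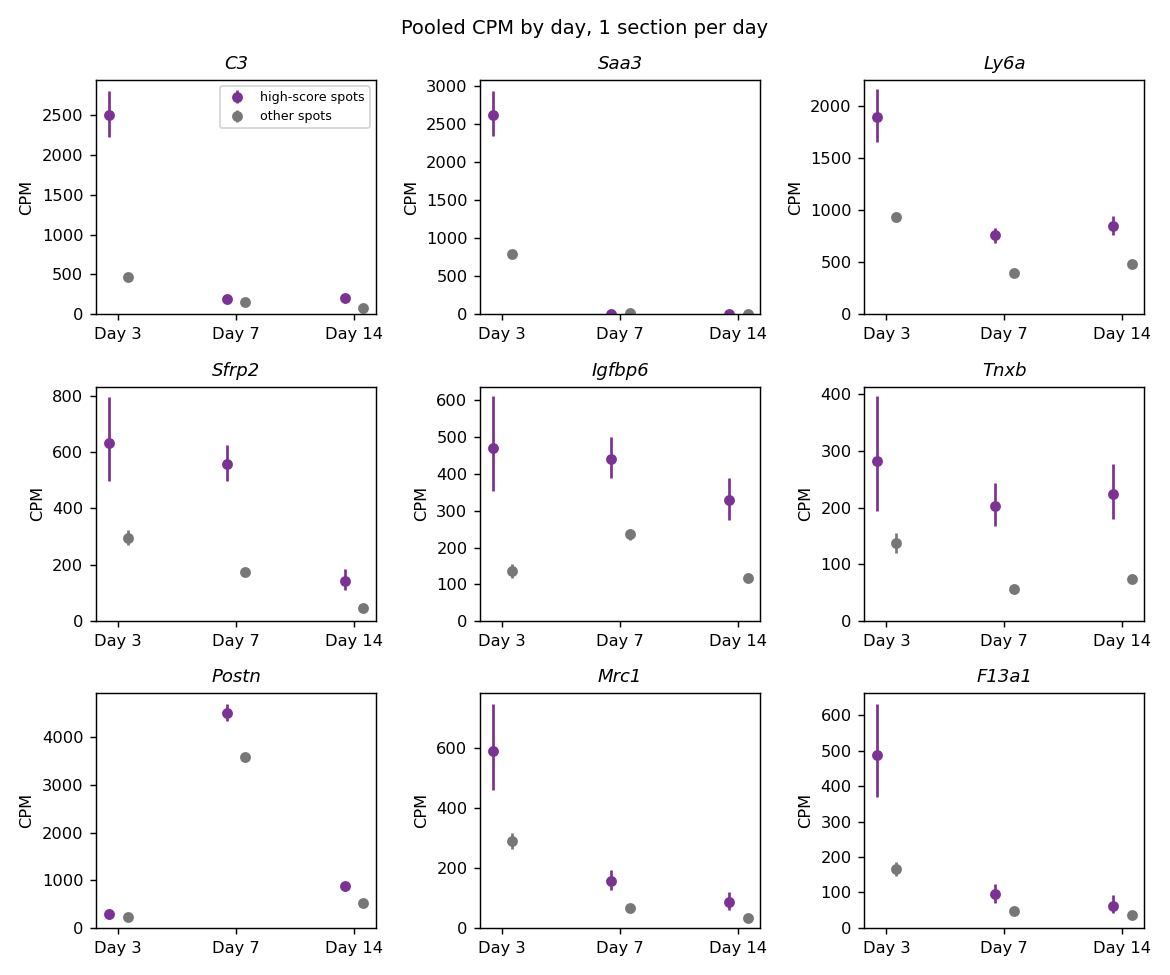
Pooled CPM of 9 genes in high-score spots and in other spots of the sections of Day 3, Day 7 and Day 14, with 95% counting intervals that do not cover differences between mice. *C3* stands at 2499 on Day 3 and at 194 and 207 later in high-score spots, while *Postn* stands at 282, 4516 and 873.

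The connected groups seen in the map differed from the scattered spots. On Day 14 the largest group of 30 spots had an adventitial ratio of 1.44 over other spots and a wound fibroblast ratio of 1.14, and the remaining 74 spots had 0.70 and -0.11. Muscle genes went the other way, at -0.01 in the group and 0.69 outside it. On Day 3 the band of 52 spots had an adventitial ratio of 1.05 against 1.29 in the 26 spots outside it, and a complement ratio of 0.97 against 2.04. The band was shallower, with a median of 1081.5 UMIs against 1825.5. On Day 7 the group of 23 had an adventitial ratio of 0.74 and a wound fibroblast ratio of 0.35, against 0.92 and -0.38 in the 58 spots outside it. These groups were found from the score itself, and the figures describe 1 section each.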

How the data were processed

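Per the labels, RNA of skin wound sections was captured on Visium slides. The submitters' processing notes name Space Ranger 1.3.0 and mm10. The deposited matrices hold raw UMI counts per gene and spot, made by the authors without normalization, and the position tables mark spots under tissue. The study's region annotation and deconvolution were not used here, and no doublet caller was run on spots. All 3 slides carry the same 4992 positional barcodes, so shared barcodes mark positions.

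Spots with the tissue mark and at least 500 UMIs were kept. The top 15% of each section by summed UMIs of the 5 score genes over the spot total were taken, with ties broken by UMIs and then barcode. UMIs were summed over each spot class and scaled to CPM without the score genes, while the CPM levels of the score genes themselves were scaled to all UMIs. Ratios carry exact conditional binomial 95% intervals and CPM values exact Poisson 95% intervals, which cover counting error only. The ratio intervals were run on simulated Poisson counts. These hold no spread between spots, so the simulation could not test whether the intervals cover it. Genes needed 100 UMIs over both classes. A gene was counted as higher or lower at 1.5-fold within a section and 2-fold between days, since 1 section per day allows no test. The 26 gene lists hold 261 genes, and 1 list is not reported here. The members and lists were chosen with earlier results of these data known. Named are the score genes, list genes, the 10 highest and 5 lowest genes per section and the 5 highest and lowest for each 2 days compared, in order of whichever interval bound lay closer to 1, and, chosen after their values were seen, leading genes against matrix-rich spots and genes shared by all sections. Gene positions came from GENCODE M21, which held 32235 of 32285 gene identifiers. Python 3.11.15, numpy 2.4.6, scipy 1.17.1, pandas 2.3.3, matplotlib 3.10.9, R 4.3.3, edgeR 4.0.16 and DESeq2 1.42.0 (the last 2 for scaling factors in an alternative) were used. Alternatives changed the score, the share of spots taken, the depth minimum, thinning, scaling and pooling.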

Additional observations from a re-analysis of the deposited data

Results flagged for a closer look

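Some lists and genes lay above the other spots in 1 section and below them in another. Each day is 1 section, and the difference between the days was not tested. The adipocyte list was at 0.0554 on Day 3, -0.162 on Day 7 and 0.515 on Day 14 on the log2 scale, and the skeletal muscle list at 0.164, -0.217 and 0.485. The pericyte list was at -0.852, -0.197 and 0.542, and *Rgs5*, a signalling regulator that marks pericytes, at -1.43, -0.404 and 0.801. *Rgs5* had 5 UMIs in high-score spots of Day 3.

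Spots outside the tissue mark also reached the score of the lowest high-score spot of their section. Among unmarked spots with at least 500 UMIs these were 9 of 674 on Day 3, 323 of 2118 on Day 7 and 176 of 1780 on Day 14. The adventitial list was higher in them than in the remaining unmarked spots by log2 ratios of 1.47, 1.04 and 0.87. Their median depth was 1174, 1035 and 1060 UMIs. Whether tissue or RNA spread from it lay there was not tested.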

How the results depend on the processing

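No paired analysis was possible because each day is 1 section, and no replicate could be left out. After thinning to 500 UMIs, 73.1%, 39.5% and 36.5% of the high-score spots of Days 3, 7 and 14 were taken again. Ties in the thinned score went to the deeper spots, so values after thinning still depend on depth. The direction of the adventitial list over other spots held in all 3 sections under every alternative run. Its value moved beyond its counting interval as follows. Ranking by the mean of scaled gene shares gave 0.95 on Day 3 and 0.887 on Day 14. Leaving *Pi16* out of the score gave 0.863, 0.744 and 0.908, and leaving out *Clec3b* gave 0.684 on Day 7. Taking the top 10% gave 1.01 on Day 7 and 1.21 on Day 14, and the top 20% gave 0.661 and 0.896. Thinning to 500 UMIs gave 0.893, 0.238 and 0.446. The mean of spot CPM gave 1.01, 0.637 and 0.877, and DESeq2 size factors 1.1 on Day 14.

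Counts of genes past the fold depended on the gene minimum and on the UMIs read. Against other spots, a minimum of 50 UMIs gave 2397, 1869 and 3106 genes and no minimum 5301, 4336 and 5314. Reading one random part of the UMIs after scoring on the other gave 488, 634 and 1149. On Day 7 the top 10% gave 1453, the top 20% 636 and thinning 360, and on Day 14 thinning gave 396. Against matrix-rich spots, 50 UMIs gave 740, 862 and 848 and no minimum 5637, 4631 and 5311. The mean of scaled shares gave 208, 481 and 169, thinning 204, 126 and 179, and the split of UMIs 163 on Day 3 and 131 on Day 14. There the score without *Pi16* gave 182 on Day 3, that without *Dpt* 532 on Day 7 and the mean of spot CPM 647 on Day 7. Between days, in the order Day 7 over Day 3, Day 14 over Day 7 and Day 14 over Day 3, the top 10% gave 133, 171 and 82 genes, the split of UMIs 81, 99 and 59, and thinning 337, 559 and 450. A minimum of 50 UMIs gave 499, 571 and 401 and no minimum 3525, 3546 and 3736, and the score without *Dpt* gave 137 and 173 in the first pairs.

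The share of neighbouring high-score spots on Day 3 was 31.6% with the top 10%, 26.4% by the mean of scaled shares, 27.5% without *Pi16*, 38.6% with the split of UMIs and 32.2% after thinning. On Day 7 it was 31.3% by scaled shares, 30.7% without *Clec3b*, 32.1% with the split and 18.0% after thinning. On Day 14 it was 28.4% and 40.5% with the top 10% and 20%, 25.2% by scaled shares, 24.9% without *Pi16* and 18.8% after thinning.

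Directions turned for the following values, all on the log2 scale. Without *Pi16* on Day 3, *Sfrp2* was at -0.505, *Prg4* at -0.23 and *Apcdd1* at 0.487. By scaled shares on Day 3 the upper dermal list was at 0.031, *Igfbp3* at 0.274 and *Apcdd1* at 0.379, and *Apcdd1* was at 0.033 with the top 10%. After thinning, Day 3 gave 0.109 for the upper dermal list, 0.368 for *Igfbp3* and 1.38 for *Apcdd1*. Thinning on Day 7 gave -0.245 for *Bc1*, -0.172 for *Ccl6*, -0.294 for *Myl4*, -0.021 for *Ace*, -0.112 for *F13a1* and, against matrix-rich spots, 0.138 for *Mmp11*. Thinning on Day 14 gave 0.089 for the epidermis list, -0.748 for *Adamts15*, -0.102 for *Retnla*, 0.079 for *Apcdd1* and, against matrix-rich spots, -0.316 for *Sfrp2*. *Adamts15* on Day 14 was also at -0.827 without *Dpt* and -0.135 with the split. DESeq2 factors moved the median of all genes by 0.10 on Day 14 against other spots and 0.16 against matrix-rich spots, and TMM factors by 0.11 there and for Day 7 over Day 3. The cause of these changes was not tested, beyond the fewer or more genes and UMIs that a minimum or a split leaves.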

Other observations

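Chemotactic and growth-related genes were not uniform in high-score spots. *Ccl11*, which encodes the eosinophil attractant eotaxin, stood at 46.7 CPM against 22.2 on Day 7, a log2 ratio of 1.07 (0.38 to 1.72). *Cxcl12*, a ligand of the receptor that *Ackr3* encodes, was at 0.74, 0.48 and 0.08. *Cxcl5*, a neutrophil attractant, was at -2.10 on Day 3, with 6 UMIs in high-score spots. *Igfbp5*, an IGF-binding protein of connective tissue, stood at 522 against 361, 422 against 380 and 551 against 278.

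Proliferation genes were at -0.37, 0.01 and -0.39, with 0 of 4, 9 and 10 genes higher and 2 lower in each section, beside 23.6%, 9.86% and 19.8% of all genes lower. Of these, 1, 1 and 0 had intervals clear of 0. The immediate early list was at -0.16, 0.17 and -0.45, and *Egr1*, an early response transcription factor, stood at 25.3 CPM against 71.5 on Day 14. *Car3*, a carbonic anhydrase of fat and muscle, stood at 1098 against 638 on Day 14, and *Lpl*, the lipoprotein lipase, at 544 against 353 on Day 7 and 240 against 149 on Day 14. The mast cell list was at 0.85 on Day 14, with 75 UMIs in high-score spots, and its intervals spanned 0 on Days 3 and 7. The small leucine-rich proteoglycan list was at 0.13, 0.26 and 0.47, and the IGF axis list at 0.44, 0.11 and 0.50.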
